A study of Mus musculus with 4 samples.

Results

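Immediate early genes are the first genes that cells transcribe after growth factor, stretch or stress signals reach the nucleus. Their transcription needs no new protein, and the transcripts are short-lived. In many cells the signal runs through the ERK and other MAP kinases to transcription factors already bound at these genes, chiefly SRF with its partners and CREB. Tissue dissociation is also known to induce them, so that in single-cell data a handling response and a response in the embryo can look alike. The 8 genes described here, of 32285 in the deposited matrices, are *Egr1*, *Fos*, *Fosb*, *Jun*, *Junb*, *Ier2*, *Atf3* and *Dusp1*. The list was chosen by a result from these libraries, a lower *Egr1* in the cKO multilineage progenitors (MLPs), so every cKO against cHet value in those cells is given below as a description, with no test.

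The libraries hold GFP+ cells sorted from the pharyngeal region and heart of E9.5 mouse embryos, in which Tbx1Cre had switched on the GFP reporter, and were made by droplet single-cell RNA-seq with unique molecular identifiers (UMIs). The cHet embryos were Tbx1Cre/+; Kmt2d F/+; GFP F/+ and the cKO embryos Tbx1Cre/+; Kmt2d F/F; GFP F/+. The strain is labelled SwissWebster, and the methods describe mice crossed into that stock and then kept on a background mixed with C57BL/6. Both genotypes carry a Cre knockin that inactivates 1 copy of *Tbx1*, and by design both lack at least 1 copy of *Kmt2d* in the sorted cells, so no library is wild type. Each genotype has 2 libraries: in Rep1, 4 embryos were pooled and run on the Next GEM kit, and in Rep2, 3 embryos were pooled and run on the GEM-X kit. Embryos within a pool cannot be told apart, and kit and pool size cannot be told apart between Rep1 and Rep2. The tissue was taken apart with trypsin at room temperature before sorting. p-values measure the spread between these pools only.

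After filters, 5869 to 11938 cells per library remained, with a median of 17241 to 22972 UMIs per cell, and 33448 cells were clustered without the 8 genes and without other stress genes. Of these, 28058 cells fell in clusters that could be named from markers and are called MLP-like, anterior and posterior second heart field-like (aSHF-like and pSHF-like), endothelium-like and so on. The 3116 MLP-like cells stood out by *Nrg1*, *Hoxa3*, *Hoxb3*, *Hoxd3* and *Alx1*, which is 5 of the 12 markers listed for that type, and the 1630 aSHF-like cells by 8 aSHF markers and also by 5 of the MLP markers. *Kmt2d* itself was read at 17.4 and 23.9 CPM in the cHet Rep1 and Rep2 libraries and at 15.2 and 21.0 CPM in the cKO libraries. Where these 3' tags lie relative to the floxed part was not examined, so they do not check the deletion. The paper reports by RT-qPCR that *Kmt2d* was depleted in E9.5 cKO embryos against Tbx1Cre/+ controls. The deposited cHet Rep1 matrix stood apart: 60.04% of its UMIs lay in kept cells, against 86.1% to 91.6% in the other libraries. It held 30851 barcodes with fewer than 3000 genes, against 2639 to 4188. Its 37093 barcodes are more than the total of cells that the paper lists for this library. In the other libraries the barcodes (9307 to 16775) equal the listed totals. The values that set cHet Rep1 apart here thus depend on which barcodes were deposited. Cells kept in the same kit shared 12 barcodes in Rep1 and 41 in Rep2, and no barcode was shared across kits.

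Among the members, *Egr1* encodes a zinc finger transcription factor (ENSMUSG00000038418). *Fos* (chromosome 12, 85473890 to 85477273, plus strand) and *Fosb* (chromosome 7, 19302696 to 19310051, minus strand) encode proteins that bind DNA as AP-1 with a partner of the Jun family. *Jun* (chromosome 4, 95049034 to 95052222, minus strand) and *Junb* (chromosome 8, 84974484 to 84978718, minus strand) encode those partners. *Atf3* (chromosome 1, 191170296 to 191218039, minus strand) encodes a bZIP factor of the ATF/CREB family. *Ier2* (chromosome 8, 84661331 to 84662852, minus strand) encodes a small nuclear protein, and *Dusp1* (chromosome 17, 26505590 to 26562128, minus strand) a phosphatase that turns MAP kinases off. Positions are those of GENCODE M21 on GRCm38 (mm10), and all 8 are protein-coding genes with the same identifiers in the matrices.

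Promoter sequence from RefSeq (GRCm38.p6, 250 bases before to 50 bases after the start) was found for 6 of the 8 genes and searched for elements through which the family is known to be induced or to act. The motifs were the full cAMP response element TGACGTCA, the AP-1 site TGANTCA, the EGR site GCGTGGGCG and the CArG box of SRF on both strands, and TATAAA on the gene's strand. A CArG box can contain TATAAA. 3 promoters held 1 match each, and they are printed with the matched letters in capitals because they are the members with a match in this window. The *Dusp1* promoter (chr17:26508423-26508722, minus strand) holds TGACGTCA at -143 from the RefSeq start. That motif was found in 1.79% of the 32851 promoters searched, a part of the table in which each is 300 bases long and counted once. That start is not the end of the *Dusp1* position given above, which spans a longer GENCODE transcript, so the window lies inside that span. The *Fos* promoter (chr12:85473640-85473939, plus strand) holds TATAAA at -33 and the *Junb* promoter (chr8:84978699-84978998, minus strand) at 1, a motif found in 8.32% of promoters. The RefSeq start of *Junb* lies upstream of its GENCODE start at 84978718, so this match lies before the GENCODE start. The *Atf3* window, which held no match, also lies inside the longer span given above for *Atf3*.
Dusp1: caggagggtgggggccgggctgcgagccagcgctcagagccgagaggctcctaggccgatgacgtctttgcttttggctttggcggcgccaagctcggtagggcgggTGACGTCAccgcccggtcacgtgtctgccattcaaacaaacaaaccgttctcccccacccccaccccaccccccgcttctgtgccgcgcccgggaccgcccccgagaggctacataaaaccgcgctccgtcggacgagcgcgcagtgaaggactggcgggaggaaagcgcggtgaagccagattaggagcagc
Fos: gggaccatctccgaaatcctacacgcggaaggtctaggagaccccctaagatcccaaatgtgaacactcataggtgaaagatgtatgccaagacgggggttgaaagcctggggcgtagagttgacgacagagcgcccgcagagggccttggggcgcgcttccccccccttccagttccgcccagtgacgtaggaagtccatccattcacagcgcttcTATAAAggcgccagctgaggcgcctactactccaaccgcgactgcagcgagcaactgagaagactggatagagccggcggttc
Junb: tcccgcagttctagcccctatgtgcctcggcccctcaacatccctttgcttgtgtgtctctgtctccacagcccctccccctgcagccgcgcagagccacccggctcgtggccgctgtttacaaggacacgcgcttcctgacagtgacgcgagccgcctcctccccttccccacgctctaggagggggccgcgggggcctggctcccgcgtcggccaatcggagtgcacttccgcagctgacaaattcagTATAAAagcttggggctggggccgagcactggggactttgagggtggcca
No match to the AP-1 site (7.81% of the promoters searched), the EGR site (0.612%) or the CArG box (1.63%) lay in the 6 windows, which says only that those letters are not in them.

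The 8 genes differed widely in level. *Ier2* and *Jun* made up most of the family's UMIs, while *Fos* and *Fosb* were close to the limit of detection. Over all cells kept, *Ier2* was read at 104 and 146 CPM in cHet Rep1 and Rep2 and at 100 and 122 CPM in cKO Rep1 and Rep2. *Jun* stood at 47.7 and 49.1 CPM in the cHet libraries and 44.4 and 49.1 CPM in the cKO libraries. Both genes were therefore within a narrow range, with *Ier2* higher in both Rep2 libraries than in both Rep1 libraries on this scale. *Egr1* was read at 5.30 and 2.54 CPM in cHet and at 3.18 and 4.35 CPM in cKO. The genotypes overlapped for *Egr1*: the cKO library was the lower one in Rep1 and the higher one in Rep2. *Fos* was read at 1.91 and 1.65 CPM in cHet and at 0.764 and 1.14 CPM in cKO, with both cKO libraries below both cHet libraries. *Fosb* stood at 0.475 and 2.56 CPM in cHet and 0.253 and 0.602 CPM in cKO, so that the cHet Rep2 library alone was high. *Junb* was read at 6.57 and 5.71 CPM in cHet and 4.59 and 4.90 CPM in cKO, again with no overlap. The share of all genes whose genotypes separate in this way was not counted, so neither separation is read as a genotype effect. *Atf3* stood at 5.14 and 3.20 against 3.76 and 2.73 CPM, and *Dusp1* at 6.95 and 11.2 against 5.53 and 10.0 CPM, and for both the genotypes overlapped. Within each replicate the cKO library was the lower one for both genes, by log2(CPM + 1) differences of -0.37 in Rep1 and -0.17 in Rep2 for *Atf3* and of -0.28 and -0.14 for *Dusp1*. CPM here is the usual scaling of UMIs to the library's total over the cells named, and since a 3' tag counts each transcript once it needs no length correction.

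**Figure D1:**
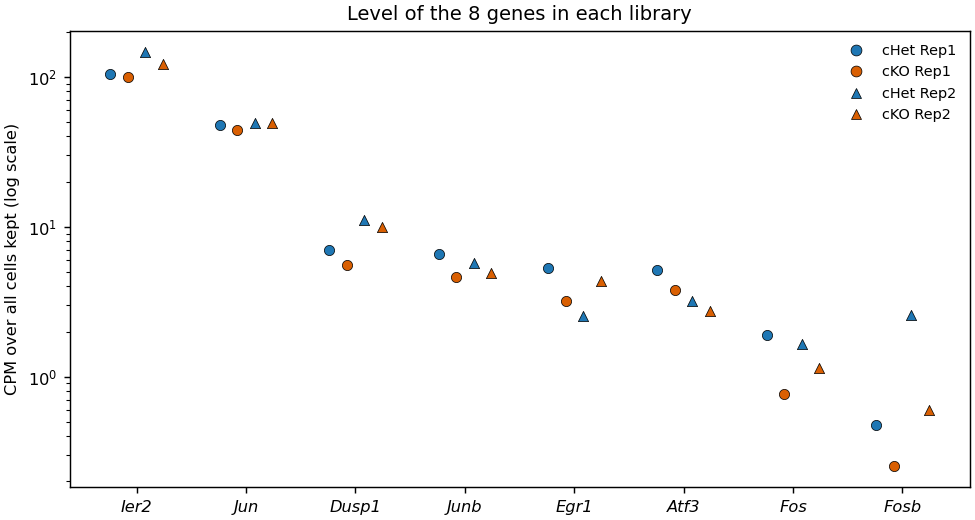
Level of the 8 immediate early genes in each of the 4 libraries, as CPM over all cells kept on a log axis; circles are Rep1, triangles Rep2, blue cHet and orange cKO, with no error bars since each point is 1 library. *Ier2* (100 to 146 CPM) and *Jun* (44.4 to 49.1 CPM) lie well above the rest, and *Fosb* (0.253 to 2.56 CPM) has the widest spread, with cHet Rep2 the highest.

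The UMIs of the scarce members were held by few cells. A UMI of *Egr1* was found in 7.33% of cHet and 3.94% of cKO cells in Rep1 and in 2.75% of cHet and 3.39% of cKO cells in Rep2, against 78.2% to 87.8% for *Ier2*. The 1% of cells with the most *Egr1* held 36.1% of its UMIs in cHet Rep1 and 59.5% to 66.2% in the other libraries, and the highest single cell held 14 to 27 UMIs. *Jun* and *Ier2* were spread more evenly: their top 1% of cells held 8.83% to 10.0% and 4.51% to 5.23% of the UMIs. In cHet Rep1, *Egr1* was thus found in a larger share of cells and was less concentrated in a few of them than in the other libraries.

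By cell type, the endothelium-like cells held the highest level of 6 of the 8 genes. Their ranges over the 4 libraries, as log2 of the level relative to the whole library with 1 CPM added to both, lay clear of the next type for *Egr1*, *Jun*, *Junb*, *Atf3* and *Dusp1*, and overlapped it for *Ier2*. *Atf3* was read there at 38.7, 42.3, 29.0 and 29.0 CPM in cHet and cKO of Rep1 and then cHet and cKO of Rep2, which is 7.63 times the whole library (mean log2 2.93 ± 0.21, SD, n = 4 libraries). The next type for *Atf3* was the cardiac muscle-like cells at 1.76 times, and the neuron-like cells were lowest at 0.29 times. *Junb* was at 23.5, 23.5, 31.2 and 33.8 CPM in the same order of libraries, 4.48 times the library (log2 2.16 ± 0.36). All other types lay within 0.46 to 1.01 times for *Junb*. *Dusp1* was 3.14 times the library in the endothelium-like cells (log2 1.65 ± 0.26), and the neuron-like cells followed at 1.71 times. *Jun* was 2.17 times the library there (log2 1.12 ± 0.10), followed by the MLP-like cells at 1.65 times (log2 0.72 ± 0.11), and both of these were clear of the types below them. *Ier2* was 1.34 times the library in the endothelium-like and 1.29 times in the mesenchyme-like cells, which were not separated, and lowest at 0.54 times in the pSHF-like cells.

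*Egr1* in the endothelium-like cells was read at 10.1, 10.5, 12.6 and 18.1 CPM in cHet and cKO of Rep1 and then cHet and cKO of Rep2. The highest value in any other type was 6.93 CPM, in the MLP-like cells of cHet Rep1. Below the endothelium-like cells the order ran from the mesenchyme-like cells (1.13 times the library) over neuron-like, branchiomeric muscle-like, epithelium-like, MLP-like, aSHF-like, cardiac muscle-like and pSHF-like cells to the otic vesicle-like cells (0.35 times), and no neighbours in that order were separated. An *Egr1* UMI was found in 12.1% to 16.8% of endothelium-like cells and in 0.513% to 3.59% of pSHF-like cells, at median depths of 19428 and 19996 UMIs. No type known to lack *Egr1* was at hand to set the share that free RNA alone gives. The cHet Rep1 library had the highest *Egr1* CPM in 8 of the 10 named types, the exceptions being the endothelium-like and cardiac muscle-like cells. In epithelium-like cells it stood at 6.59 CPM in cHet Rep1 against 1.08 to 3.96 CPM elsewhere.

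**Figure D2:**
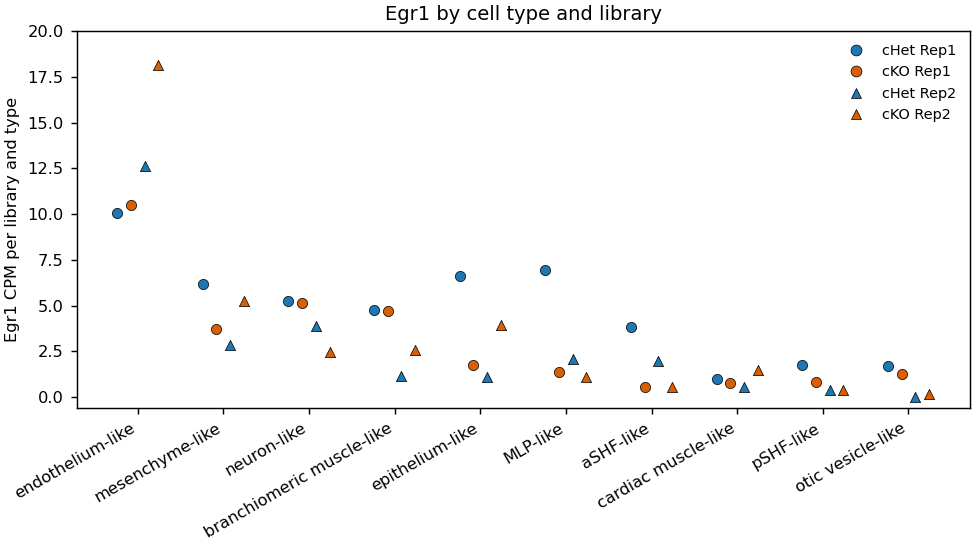
*Egr1* in CPM for each named cell type (horizontal axis, in the order of the mean relative level) and each library; circles are Rep1, triangles Rep2, blue cHet and orange cKO. The 4 endothelium-like values (10.1 to 18.1 CPM) lie above all others, and the cHet Rep1 point is the highest in 8 of the 10 types.

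The Fos pair had another distribution. *Fos* was highest in the cardiac muscle-like cells, at 10.7, 7.07, 8.28 and 7.87 CPM in cHet and cKO of Rep1 and then cHet and cKO of Rep2, or 4.04 times the library (log2 2.02 ± 0.16), clear of every other type. It was found in 12.5% to 15.8% of these cells, against 0.765% to 1.99% of mesenchyme-like cells. *Fosb* was also highest there at 2.01 times the library (log2 1.01 ± 0.30), without being separated from the epithelium-like cells. The cKO Rep1 library held only 48 cardiac muscle-like cells. At the finer clustering the same 6 genes were highest in the endothelium-like cells, and *Fos* and *Fosb* in the cardiac muscle-like cells.

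**Figure D3:**
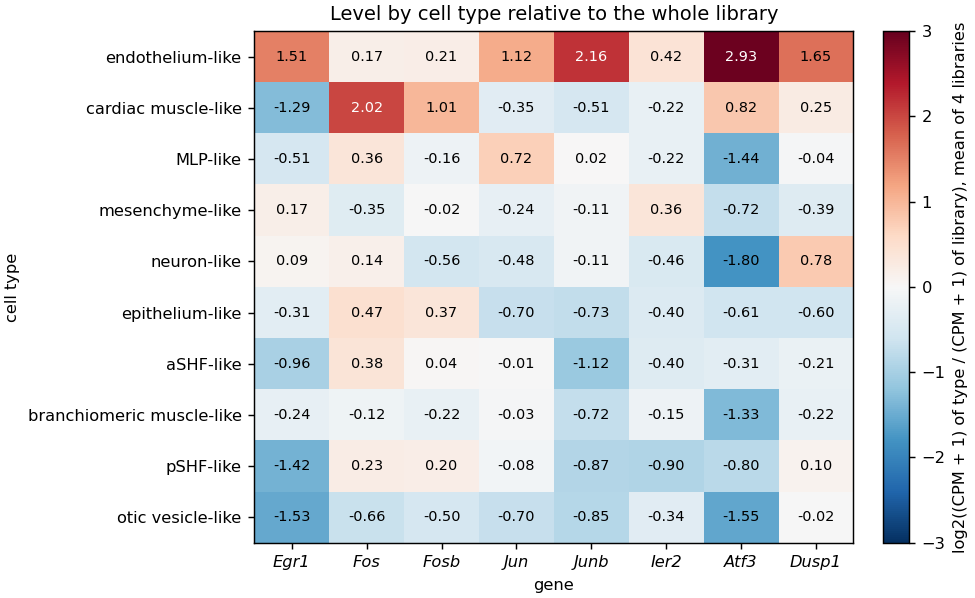
Mean over 4 libraries of the log2 ratio between the level in a cell type and in the whole library, each as CPM + 1, for the 8 genes (columns) and 10 cell types (rows). *Atf3* (2.93), *Junb* (2.16), *Dusp1* (1.65), *Egr1* (1.51) and *Jun* (1.12) peak in endothelium-like cells, *Fos* (2.02) and *Fosb* (1.01) in cardiac muscle-like cells.

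The genes whose levels followed a member most closely were sought over the 10 types in 4 libraries (40 points that share libraries), among 7048 genes of at least 20 CPM, by Pearson's r of library-centred log2(CPM + 5). For *Egr1* they were *Git2* (r = 0.88), *Diaph2* (0.87), *Ndel1* (0.86), *Abl2* (0.86) and *Crem* (0.85). For *Fos* they were *Hspb1* (0.93), the sarcomere genes *Myh7* (0.92), *Myl3* (0.91) and *Tnnc1* (0.90), and *Nipsnap2* (0.90). For *Jun* they were *Fbxl17* (0.90), *Vamp5* (0.87), *Rcor1* (0.86), *Calcrl* (0.85), which encodes a vascular receptor, and *Fmnl3* (0.85). Between members, *Egr1* had r = 0.67 with *Ier2* and 0.52 with *Jun*, while *Fos* had r = -0.04 with *Jun*. These values describe the types and have no test.

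To ask whether the members were found in the same cells, every cell was thinned to 5000 UMIs, which no kept cell fell below. A mean of 0.699 members per cell was then detected in cHet and 0.644 in cKO of Rep1, and 0.799 in cHet and 0.720 in cKO of Rep2. 3 or more members were found in 1.62%, 1.08%, 2.17% and 1.73% of cells in that order, and 4 or more in 13, 7, 36 and 35 cells. Multiplying the single shares within each library gave 0.0446%, 0.0183%, 0.0542% and 0.0331% of cells with 4 or more members, against 0.222%, 0.111%, 0.385% and 0.293% observed. Multiplying them within each library and cell type gave 0.0971%, 0.0539%, 0.143% and 0.141%, so that 2.06 to 2.69 times as many such cells were seen as the shares of their own type give. For 3 or more members, which rest on 68 to 207 cells per library, that ratio was lower, at 1.19 to 1.305. Without thinning, 11.99% to 18.9% of cells held 3 or more members.

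**Figure D4:**
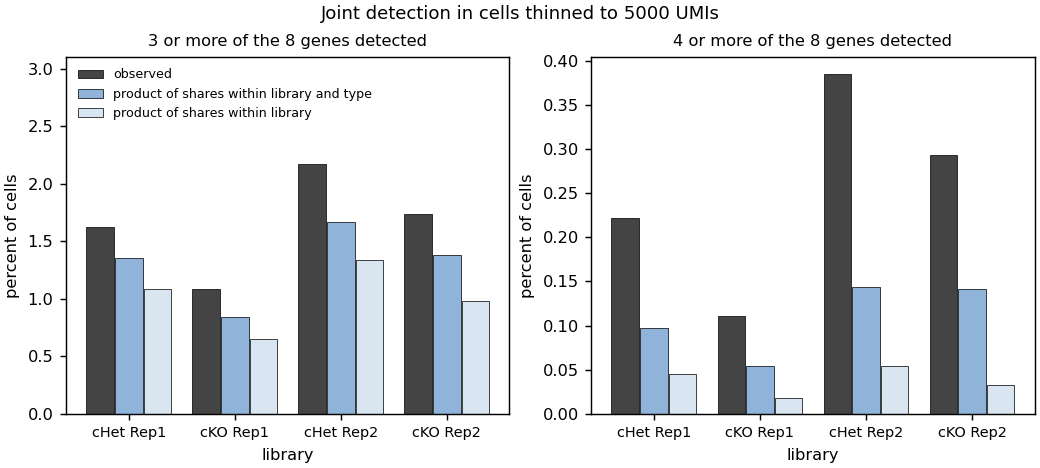
Percent of cells in each library with 3 or more (left) and 4 or more (right) of the 8 genes after thinning to 5000 UMIs. Dark bars are observed shares, mid blue bars the product of the single shares within library and cell type, and pale bars the product within library; observed shares exceed both in all 4 libraries (0.222%, 0.111%, 0.385% and 0.293% for 4 or more).

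Cells with 4 or more members were mostly endothelium-like: 69.2% of them in cHet and 57.1% in cKO in Rep1, and 66.7% in cHet and 65.7% in cKO in Rep2. Among endothelium-like cells, 9.15% and 16.1% of the cHet Rep1 and Rep2 cells and 9.42% and 16.7% of the cKO Rep1 and Rep2 cells held 3 or more members, while no other type passed 2.33%. Of the 28 pairs of members, the product within library and type was exceeded in all 4 libraries by 8 pairs at 5000 UMIs and by 14 pairs at 10000 UMIs. *Fos* with *Egr1* was found in 17 cells, against 2.81 from the product, a ratio of 6.06, and at 10000 UMIs in 46 cells against 10.1. *Fos* with *Fosb* was found in 6 cells against 1.42, and at 10000 UMIs in 23 against 4.69. *Egr1* with *Junb* was found in 47 cells against 20.1. *Jun* with *Ier2*, the abundant pair, came to a ratio of 1.01 at 10000 UMIs. These counts are small, and they are descriptions with no test.

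Beside the joint detection stand other measures of the same cells. In cells with 4 or more members the 23 other immediate early genes summed to 1215, 1029, 1811 and 1680 CPM in cHet and cKO of Rep1 and then cHet and cKO of Rep2, against 505, 477, 807 and 820 CPM in cells with no member and 791, 774, 1387.5 and 1466 CPM in the endothelium-like cells as a whole, the type that most of these cells belong to. The 11 heat shock genes summed to 10585, 9314, 9178 and 9011 CPM against 11065, 10495, 10762 and 10475 CPM, the lower value in every library being that of the cells with 4 or more members, and to 10575, 10148, 10467 and 9845 CPM in the endothelium-like cells as a whole. The median share of mitochondrial UMIs was 1.75%, 1.53%, 1.16% and 1.42% against 2.11%, 1.996%, 1.24% and 1.35%, higher in the cells with 4 or more members in cKO Rep2 and lower in the other libraries. The 11 SRF and MAP kinase genes upstream of the family summed to 857 to 1160 CPM against 623 to 770 CPM, and in the endothelium-like cells as a whole to 913 to 1278 CPM. The 13 FGF/ERK genes summed to 662, 571, 1044 and 1091 CPM in cells with 4 or more members, against 498, 466, 825 and 818 CPM in cells with none and 501, 469.5, 853 and 949 CPM in the endothelium-like cells as a whole. The part of cell type and of handling in the joint detection was not tested.

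Summed over the 8 members, barcodes of lower quality held no more than kept cells in 3 of the 4 libraries. This sum is mostly *Ier2* and *Jun*, so it says little of the scarce members. In barcodes with fewer than 3000 genes the 8 members summed to 188, 139, 165 and 162 CPM in cHet and cKO of Rep1 and then cHet and cKO of Rep2, against 178, 163, 222 and 194 CPM in kept cells. cHet Rep1, whose matrix holds more barcodes than the cells listed in the paper, was the library in which they were higher. Barcodes with over 10% mitochondrial UMIs held 110, 49.7, 59.9 and 64.1 CPM. Among kept cells, those with 2 to 5% mitochondrial UMIs held 178, 164, 224 and 217 CPM and those under 2% held 178, 162, 222 and 193 CPM, a difference seen in cKO Rep2. *Egr1* in barcodes with fewer than 3000 genes stood at 3.48, 1.01, 2.69 and 4.06 CPM, below the kept cells in every library but cHet Rep2, where the kept cells held 2.54 CPM.

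The MLP-like cells are where *Egr1* was chosen, and its values there are as follows. *Egr1* was read at 6.93 CPM in cHet Rep1 (81 UMIs, exact Poisson 95% interval 5.50 to 8.61), 2.07 CPM in cHet Rep2 (38 UMIs, 1.47 to 2.84), 1.37 CPM in cKO Rep1 (16 UMIs, 0.783 to 2.22) and 1.10 CPM in cKO Rep2 (19 UMIs, 0.662 to 1.72). The intervals cover counting error only. Both cKO libraries lay below both cHet libraries, with cHet Rep1 well above the other libraries. The share of all genes with such an order in these cells was not counted. *Egr1* was found in 51 of 586 cHet and 12 of 502 cKO cells in Rep1, and in 17 of 949 cHet and 17 of 1079 cKO cells in Rep2. In Rep2 the 5 cells with the most *Egr1* held 25 of the 38 UMIs in cHet and 7 of the 19 in cKO, and 1 cHet cell held 14. With the 5 highest cells of each library left out, the levels were 4.71, 0.599, 0.709 and 0.694 CPM in cHet and cKO of Rep1 and then cHet and cKO of Rep2. Outside cHet Rep1 the levels then lay within 0.599 to 0.709 CPM. This setting was added after the values were seen.

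The other members in the MLP-like cells had these levels. *Fos* was read at 2.65 and 2.94 CPM in cHet and 1.199 and 1.505 CPM in cKO Rep1 and Rep2, with both cKO values below both cHet values. For this order too the share of all genes was not counted. *Fosb* was read at 0.257 and 1.69 CPM in cHet and at 0.984 CPM in cKO Rep2, and had 0 UMIs in the 502 cKO Rep1 cells, where the limit set by 3 counts is 0.257 CPM and the upper bound of the exact Poisson 95% interval 0.316 CPM. *Jun* stood at 72.6 and 84.8 against 70.9 and 88.8 CPM, *Junb* at 7.27 and 4.91 against 4.97 and 5.09, *Ier2* at 93.3 and 118 against 86.4 and 107, *Atf3* at 1.11 and 0.491 against 0.770 and 0.521, and *Dusp1* at 7.53 and 9.49 against 5.48 and 9.78 CPM. The genotypes overlapped for *Jun*, *Junb*, *Ier2*, *Atf3* and *Dusp1*, although *Ier2* was the lower in cKO within each replicate (log2(CPM + 1) differences of -0.11 and -0.14). Endothelium markers, which mark the cells richest in most of these genes but not in *Fos* and *Fosb*, summed over 9 genes to 50.9 and 67.6 CPM in the cHet Rep1 and Rep2 MLP-like cells and to 43.8 and 59.3 CPM in the cKO ones, with at most 2 of the 9 at 0 in a library. They were thus lower in cKO within each replicate and higher in Rep2 in both genotypes. The 9 cardiac muscle markers, which mark the type highest in *Fos* and *Fosb*, summed to 79.2 and 54.5 CPM in cHet Rep1 and Rep2. In cKO they summed to 56.2 and 55.3 CPM, lower than cHet in Rep1 and not in Rep2. In the endothelium-like cells the endothelium markers summed to 2705 to 4254 CPM, and in the cardiac muscle-like cells the cardiac muscle markers to 22946 to 40957 CPM. The part of both lists in the values above was not tested.

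Outside the MLP-like cells, in the same 4 libraries, no member passed the test for genotype. Of 19949 genes tested with edgeR's quasi-likelihood test with replicate as a block, 0% were called at adjusted p under 0.05 (0 genes). Without adjustment, 1064 genes had p under 0.05. DESeq2 called 61 genes and none of the 6 members to which it gave an adjusted p, which it did not give for *Fos* and *Fosb*. *Egr1* was read at 5.13 and 2.58 CPM in cHet Rep1 and Rep2 and at 3.33 and 4.64 CPM in cKO, and its log2 difference (cKO minus cHet) was 0.13 (SE 0.35, 95% interval -0.75 to 1.00). The direction was opposite in the replicates: -0.50 in Rep1 and 0.65 in Rep2 on the log2(CPM + 1) scale. *Fosb* had a log2 difference of -1.67 (SE 0.35, adjusted p = 0.67), from 0.497 and 2.65 CPM in cHet and 0.273 and 0.568 CPM in cKO, and of -0.44 without cHet Rep2. *Fos* had -0.86 (SE 0.25, adjusted p = 0.89), *Junb* -0.37 (SE 0.12), *Atf3* -0.35 (SE 0.13), *Dusp1* -0.23 (SE 0.10), *Ier2* -0.16 (SE 0.06) and *Jun* -0.04 (SE 0.06). For 7 of the 8 members the estimate was below 0, with a median of -0.29 beside -0.00 over all genes tested. 4 members (*Fos*, *Fosb*, *Junb* and *Atf3*) had an unadjusted p under 0.05. Since this fit leaves 1 residual degree of freedom, a miss does not show that the levels were equal.

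Since no gene was called there, the lists of related genes are given by their medians. The median log2 difference was -0.07 over the 23 other immediate early genes, -0.02 over the 11 heat shock genes, -0.06 over the 13 FGF/ERK feedback and target genes and -0.01 over the 11 SRF and MAP kinase genes. Over all kept cells, the other immediate early genes summed to 531 and 863 CPM in cHet Rep1 and Rep2 and to 499 and 878 CPM in cKO. The FGF/ERK genes summed to 516 and 857 against 490 and 855 CPM, and the SRF and MAP kinase genes to 639 and 767 against 630 and 760 CPM. In these 3 lists the genotypes of a replicate lay closer to each other than the replicates of a genotype. The heat shock genes summed to 11270 and 10950 CPM in cHet and 10963 and 10643 CPM in cKO.

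Genotype was also compared within named types. *Egr1* in the aSHF-like cells passed the filter on low counts only through the cHet libraries, and these cells share their libraries with the MLP-like cells in which the gene was chosen and hold some of the same markers, so its values there are a description, with no test. Of 13245 genes tested in these cells 0.717% were called. *Egr1* was read at 3.82 and 1.98 CPM in cHet Rep1 and Rep2 (32 and 18 UMIs in 22 and 8 cells) and at 0.563 and 0.532 CPM in cKO (4 and 5 UMIs in 2 and 4 cells). Both cKO libraries were below both cHet libraries. The share of all genes with that order in these cells was not counted. The fitted log2 difference was -2.32, and ran from -2.97 to -1.66 when a library was left out. The sum of aSHF-like and cardiac muscle-like cells holds these same cells, so its fitted *Egr1* difference of -1.45 is also a description, with no test. None of the other members was called in that sum, with 0.00704% of genes called. In the aSHF-like cells of cHet Rep2, 15 of the 18 *Egr1* UMIs lay in 5 cells. Without the 5 highest cells the levels were 2.03 CPM in cHet Rep1 and 0.330 CPM in cHet Rep2, and since fewer than 5 cells held a UMI in each cKO library no value is left there to set beside them. MLP markers summed to 554 to 753 CPM in the aSHF-like cells and to 751 to 1160 CPM in the MLP-like cells. The 9 endothelium markers, which mark the type highest in *Egr1*, summed to 56.8 and 95.5 CPM in the cHet Rep1 and Rep2 aSHF-like cells. In cKO they summed to 59.5 and 91.3 CPM, so higher in Rep1 and lower in Rep2. In the endothelium-like cells they summed to 2705 to 4254 CPM. All the other marker lists except the aSHF list differed between the genotypes in the same direction in both replicates of the aSHF-like cells. The lists given next are a part of them. The 9 pSHF markers summed to 87.1 and 134 CPM in cHet Rep1 and Rep2 and to 142 and 162 CPM in cKO, none of them at 0, and *Egr1* in the pSHF-like cells stood at 0.37 times the library. The 9 cardiac muscle markers summed to 383 and 826 CPM in cHet and to 317 and 723 CPM in cKO, with 1 or 2 at 0, and the 8 epithelium markers to 191 and 174 CPM in cHet and to 264 and 209 CPM in cKO, with 0 to 3 at 0. The part of these differences in the *Egr1* values was not tested.

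*Fosb* was lower in the cKO mesenchyme-like cells (log2 difference -2.68, SE 0.38, adjusted p = 0.00722 by edgeR), where 1.06% of 17057 genes were called, and DESeq2 called it as well (-2.35, adjusted p = 0.0184). It was read at 0.447 and 3.32 CPM in cHet Rep1 and Rep2 and at 0.197 and 0.343 CPM in cKO, from 18, 243, 13 and 25 UMIs. The cHet Rep2 library alone was high. Without it the log2 difference was -0.91 (adjusted p = 1.00), and no fit that left out a library or the block called it. The 9 cardiac muscle markers, which mark the type with the highest *Fosb*, summed to 25.8 and 87.0 CPM in the cHet Rep1 and Rep2 mesenchyme-like cells and to 22.6 and 54.5 CPM in the cKO ones, with none at 0, so that they too were highest in cHet Rep2 and lower in cKO within each replicate. In the cardiac muscle-like cells the same markers summed to 22946 to 40957 CPM, and *Fosb* stood at 1.57 to 4.33 CPM. The part of these markers in the *Fosb* difference of the mesenchyme-like cells was not tested. In the same cells *Fos* had a log2 difference of -1.37 (SE 0.30, adjusted p = 0.067) and *Junb* of -0.45 (SE 0.11, adjusted p = 0.11), neither of which passed; *Fos* was called with library totals in place of TMM (adjusted p = 0.0158). *Egr1* stood at 6.18 and 2.84 CPM in cHet against 3.70 and 5.23 CPM in cKO in these cells, with overlapping genotypes (0.10, SE 0.28). The calls among the related genes were these 7, named after their values were seen. In the mesenchyme-like cells *Jund*, the third Jun gene, was lower in cKO (-0.32, SE 0.05, adjusted p = 0.0117), as was *Il17rd*, which encodes an FGF feedback inhibitor (-0.41, SE 0.08, adjusted p = 0.0355), while *Myc* was higher (0.39, SE 0.07, adjusted p = 0.0225). *Myc* was also higher in the cKO branchiomeric muscle-like cells (0.66, SE 0.11, adjusted p = 0.00139). *Etv4*, an ERK target, was lower in the cKO aSHF-like cells (-0.67, SE 0.17, adjusted p = 0.0244). In the cKO pSHF-like cells the cyclin gene *Ccnd1* was lower (-0.35, SE 0.07, adjusted p = 7.89e-05) and the small heat shock gene *Hspb1* higher (0.78, SE 0.20, adjusted p = 0.0116). Without the replicate block no gene was called in any of these types, and DESeq2 called 0 genes in the aSHF-like cells and 0 lower genes in the pSHF-like cells, so neither *Etv4* nor *Ccnd1*.

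With the filter on low counts, no member that reached the test was called by edgeR or DESeq2 in the other types. Without that filter edgeR called *Fos* and *Fosb* as lower in cKO in branchiomeric muscle-like cells and *Ier2* in neuron-like cells. *Fosb* was found in 0.229% of cHet and 0.730% of cKO branchiomeric muscle-like cells in Rep1. In Rep2 it was found in 3.98% of cHet and 0.436% of cKO cells, so the cHet Rep2 library alone was high and Rep1 went the other way. At an unadjusted p under 0.05, edgeR had 5 members in branchiomeric muscle-like cells, beside 1238 of 14638 genes. It had 1 member in epithelium-like (470 of 13669 genes), 1 in neuron-like (665 of 12226) and 1 in otic vesicle-like cells (517 of 11128), and 0 in endothelium-like (574 of 13089) and pSHF-like cells (811 of 13362). The share of all genes called was 1.47% in branchiomeric muscle-like, 0.995% in pSHF-like, 0.0409% in neuron-like, 0.0382% in endothelium-like, 0% in epithelium-like and 0% in otic vesicle-like cells. In the endothelium-like cells, where the family was highest, the 8 log2 differences ran from -0.23 to 0.33, and *Egr1* stood at 0.33 (SE 0.17, 95% interval -0.05 to 0.71). *Fos* in branchiomeric muscle-like cells had -1.34 (SE 0.41, adjusted p = 0.12), and *Ier2* in neuron-like cells -0.50 (SE 0.11, adjusted p = 0.23). *Ier2* was read lower in cKO than in cHet in both replicates in 8 of the 10 named types. *Fos* and *Junb* were so in 6 types, *Fosb* and *Dusp1* in 5, *Atf3* in 4, *Egr1* in 3 and *Jun* in 1. The counts for *Ier2*, *Fos*, *Fosb* and *Egr1* take in the MLP-like cells, in which *Egr1* was chosen. For *Egr1* the 3 types were the MLP-like, aSHF-like and neuron-like cells, so its count is a description, with no test. The 10 types come from the same 4 libraries and are not replicates, and cHet Rep2 was the highest library for *Ier2* in all 10. The same count over all genes was not made. All 8 members reached the test in epithelium-like, endothelium-like and mesenchyme-like cells, 7 in pSHF-like, branchiomeric muscle-like and aSHF-like cells, 5 in neuron-like and 3 in otic vesicle-like cells.

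**Figure D5:**
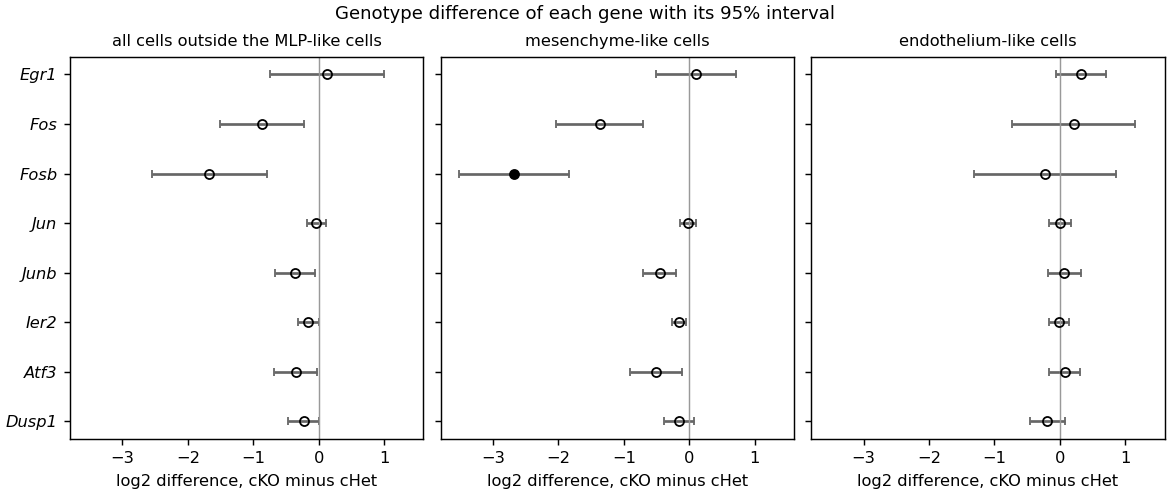
Log2 difference (cKO minus cHet) of each member with its 95% interval from edgeR's quasi-likelihood fit, in all cells outside the MLP-like cells, in mesenchyme-like and in endothelium-like cells (n = 2 libraries per genotype); a filled point passed adjusted p under 0.05. *Fosb* in mesenchyme-like cells (-2.68) is the filled point, and the endothelium-like values lie between -0.23 and 0.33.

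A difference of the genotype effect between the 8 tested types was called for no member (edgeR F-test of the type by genotype terms, 0.467% of 16258 genes called). Without adjustment, 1039 genes and 2 members had p under 0.05, and no other tool was run on this term. The smallest adjusted p was 0.22, for *Ier2* (unadjusted p = 0.00362), followed by 0.43 for *Fosb* (unadjusted p = 0.0129), and *Egr1* had 0.87. For *Egr1* this test takes in the aSHF-like values that are given above as a description with no test. It therefore cannot decide whether the *Egr1* difference varies between types, and no conclusion on *Egr1* is drawn from it.

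The 2 replicates, which differ in kit, pool size and, by the matrix headers, Cell Ranger version, gave far more calls than the genotypes. 5 of the 8 members were called, but so were 49.1% of 20126 genes (23.5% higher and 25.6% lower in Rep2), so that the members did not stand out. *Fosb* was higher in Rep2 (log2 difference 1.602, SE 0.31, adjusted p = 0.00593), as was *Dusp1* (0.46, SE 0.10, adjusted p = 0.0102). *Atf3* was lower in Rep2 (-0.88, SE 0.13, adjusted p = 0.00213), and so were *Jun* (-0.22, SE 0.06, adjusted p = 0.0253) and *Junb* (-0.37, SE 0.12, adjusted p = 0.0464). Scaling mattered here: with library totals in place of TMM the median over all genes moved from -0.00 to 0.31, *Jun* turned to 0.09 and was not called, *Junb* stood at -0.06 and was not called, *Ier2* was called as higher in Rep2 (0.39, adjusted p = 0.00345), and *Fosb*, *Dusp1* and *Atf3* kept their direction and call. With that scaling 9018 genes were higher and 3140 lower, against 4725 and 5147 with TMM. Leaving out 1 library left 1 to 5 members called, beside 34.5% to 45.8% of all genes, and without cHet Rep2 *Fosb* stood at 0.43 and *Atf3* was the 1 member called, beside 34.5% of all genes. *Egr1* and *Fos* were not called (-0.61, SE 0.32, and -0.15, SE 0.22). Of the 23 other immediate early genes, 12 were higher and 1 lower in Rep2 by the same test, of the 11 heat shock genes 1 was higher and 8 lower, and of the 13 FGF/ERK genes 8 were higher and 1 lower. Kit, pool size, Cell Ranger version and any handling that differed between the replicates cannot be told apart in this contrast.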

How the data were processed

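The authors deposited filtered 10x matrices of UMI counts per gene and barcode, aligned to mm10. The cHet Rep1 matrix holds more barcodes than the cells that the paper lists for it. Cell Ranger is named as 8.0.1 in the submitters' processing notes, while the matrix headers give 7.0.1 (Rep1 libraries) and 8.0.1 (Rep2 libraries). The ambient RNA correction of the study is not in these counts. Total UMIs per library were 179454146 to 234726019.

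Barcodes with at least 3000 genes, at most 10% mitochondrial and at most 5% hemoglobin UMIs were kept. Scrublet's automatic call marked 0.032% and 0.015% of Rep1 barcodes and so had not worked there, and the barcodes with the highest scores, at or somewhat above the share expected from loading (3.897% to 5.33% expected, 4.03% to 5.78% removed), were removed instead. Cells were clustered with scanpy 1.11.5 and leidenalg 0.10.2 on 2000 variable genes without the members and stress genes (30 components, resolution 0.8). A cluster was named with 3 or more standout markers, for the type with the largest share of its list. That naming rule was chosen once the clusters had been looked at, but before any member or genotype value was seen. Marker lists were written after the paper had been read. The members and gene lists were chosen with earlier results of these data known.

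UMIs were summed per library and cell type. edgeR 4.0.16 quasi-likelihood fits (R 4.3.3, TMM, two-sided, Benjamini-Hochberg over all genes tested, adjusted p under 0.05) had genotype and replicate as terms, and scripts were tested on simulated counts. The replicate numbers mark a shared kit. Deviations of same-numbered libraries from their genotype mean had a correlation of 0.81 over 19949 genes, which is equal for both replicates by construction. DESeq2 1.42.0 and other settings were alternatives. Named genes were all 8 members, list genes called outside the MLP-like cells, and the 5 genes most like *Egr1*, *Fos* and *Jun*. Types with fewer than 50 cells in a library were not tested alone, so cardiac muscle-like cells entered only with the aSHF-like cells. Intervals and floors (3 counts) cover counting error only.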

Additional observations from a re-analysis of the deposited data

How the results depend on the processing

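In the sum over all cells outside the MLP-like cells, no member was called under any setting run, though DESeq2 gave no adjusted p for *Fos* and *Fosb*. The count over all genes was 0, also in every fit that left out a library (0 to 0), but 61 with DESeq2, 22 without the filter on low counts, 12 with cells thinned to 5000 UMIs and 6 at clustering resolution 1.2. The *Egr1* difference changed sign: it was -0.022 without the replicate block, and ran from -0.54 to 0.78 when a library was left out, with -0.54 without cHet Rep2 and -0.10 without cKO Rep2. Leaving out a library gave -0.19 to 0.13 for *Jun*, -0.80 to 0.20 for *Atf3*, -0.51 to 0.036 for *Dusp1*, -2.52 to -0.44 for *Fosb*, -1.17 to -0.58 for *Fos*, -0.61 to -0.12 for *Junb* and -0.25 to -0.07 for *Ier2*.

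Within types the fits counted 2 members, *Fosb* in mesenchyme-like cells and *Egr1* in aSHF-like cells, the latter past the filter on low counts only through the cHet libraries and so no test result. The count was 0 without the replicate block, 1 with DESeq2, 0 with cells thinned to 5000 UMIs, and 0 to 0 when a library was left out, and 7 without the filter on low counts. When thinned, *Egr1* in aSHF-like and *Fosb* in mesenchyme-like cells did not reach the test. The 7 included *Egr1* in aSHF-like cells, again no test result (0.397% of all genes were called there without the filter). The others were *Fos* and *Fosb* in branchiomeric muscle-like (1.58%), *Fos*, *Fosb* and *Junb* in mesenchyme-like (1.81%) and *Ier2* in neuron-like cells (0.989%). The genotype fits that left out a library also had no replicate block. In the aSHF-like and mesenchyme-like cells 0 genes of any kind were called without the block or in a fit that left out a library. DESeq2 called 0 genes in the aSHF-like and 0.597% in the mesenchyme-like cells, and thinning left 0.141% and 1.37% of all genes called there. The cause of these changes was not tested. Between the replicates, 1 to 5 members were called when a library was left out, beside 34.5% to 45.8% of all genes. *Fos* then ran from -0.74 to 0.53 and *Ier2* from -0.065 to 0.19, and with library totals in place of TMM, a setting chosen after seeing the data, *Fos* stood at 0.16 and *Jun* at 0.093. The share of cells with 3 or more members, a mean of 1.65% over libraries, was 5.80% at 10000 UMIs and 15.8% without thinning. The scarcity of *Fos*, *Fosb* and *Egr1* UMIs limits what these libraries can show.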
